A study of Mus musculus with 12 samples.

Results

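Mir149, Mir676 and Mir335 are 3 miRNA genes that lie inside introns of the protein-coding genes Gpc1, Eda and Mest. They were picked by name from the deposited table because their counts were raised late on the diet, and they make up 3 of the 259 miRNA loci in a table of 3717 genes. All 3 passed the filter on low counts, as did 227 of the miRNA loci in all. The libraries came from livers of male C57BL/6 mice labelled WT, without further alleles. One pair of groups had 1 month of normal chow or of a diet labelled HFCF, a name the labels do not spell out, and was 3 months old. The other pair had 3 months of either food and was 6 months old. Each of the 4 groups held 3 libraries, described as biological replicates, with 1434214 to 3122907 miRNA counts each, and time on the diet cannot be told apart from age. Whole liver was used, so fewer cells of a type and less RNA per cell cannot be told apart either.

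A miRNA inside an intron is usually made from the transcript of its host gene: the hairpin is cut out in the nucleus, trimmed in the cytoplasm, and 1 of its arms guides the silencing complex to matching messenger RNAs. Pairing rests mostly on the seed, bases 2 to 8 of the mature strand. Gpc1 encodes glypican-1, a heparan sulfate proteoglycan of the cell surface. Eda encodes ectodysplasin A, a ligand of the tumour necrosis factor family that directs growth of hair, teeth and sweat glands and has also been described as a secreted factor raised in fatty mouse liver. Mest is an imprinted gene expressed from the paternal allele, and its product belongs to the alpha/beta hydrolases. In obese mice miR-335 has been described as raised in liver and fat.

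The mature strands below are those the 3 loci give in RefSeq (build GRCm38.p6), with the seed in capitals. They are shown because the seed sets which messengers a strand can pair with.
miR-149-5p: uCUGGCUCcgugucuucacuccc
miR-149-3p: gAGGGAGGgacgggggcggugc
miR-676-3p: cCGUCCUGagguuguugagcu
miR-335-5p: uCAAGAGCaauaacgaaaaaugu
miR-335-3p: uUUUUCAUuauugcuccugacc
No seed was shared among the 5 strands. For 4 of them, no other mature mouse miRNA of the RefSeq table carried the same seed. The exception was miR-149-3p, whose seed recurred in 3 other miRNAs, of which only Mir1943 had a row in the table, with 0 to 10 counts per library and no pass through the filter. 

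The counts themselves are for whole hairpins, printed here 5′ to 3′ with the mature strands in capitals.
Mir149: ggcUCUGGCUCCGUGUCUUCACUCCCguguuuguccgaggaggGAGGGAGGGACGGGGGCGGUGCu
Mir676: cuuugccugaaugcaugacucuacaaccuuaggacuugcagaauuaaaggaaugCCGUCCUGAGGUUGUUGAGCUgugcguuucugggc
Mir335: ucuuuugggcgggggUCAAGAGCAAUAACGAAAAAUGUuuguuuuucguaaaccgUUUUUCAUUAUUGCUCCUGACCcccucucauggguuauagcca
The hairpins were 66, 89 and 98 bases long and differed in composition. Mir149 had 68.2% G and C, against 48.3% in Mir676 and 42.9% in Mir335, and the median over the miRNA loci with a RefSeq hairpin was 47.9%. Predicted folding energies were -36.7 kcal/mol for Mir149, -41.5 for Mir676 and -44.3 for Mir335, with 25, 32 and 36 base pairs. Which arm the reads came from is not resolved in the table.

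The 3 loci lie on different chromosomes of mm10, each on the plus strand and on the strand of its host. Mir149 lies at chr1:92850378-92850443, in intron 1 of Gpc1-201, an intron of 21249 bases that takes up most of the transcript. Mir676 lies at chrX:100381097-100381185, in intron 2 of Eda-207, an intron of 71355 bases, and ends 269 bases before the next exon. Mir335 lies at chr6:30741299-30741396, in intron 3 of Mest-202, which is 1316 bases long. None overlapped another row of the table, and each was the 1 miRNA row of its host. The nearest miRNA row was 321264 bases away for Mir335 (Mir29a), and farther for the other two.

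**Figure D1:**
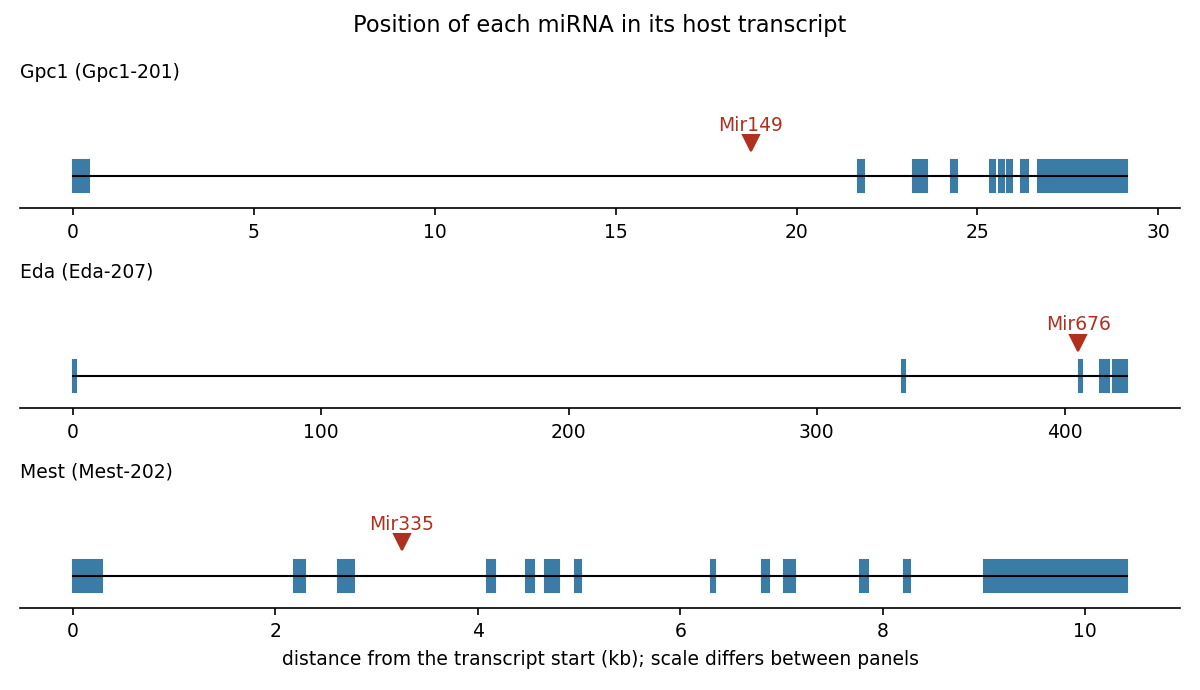
Position of each miRNA (red triangle) in 1 GENCODE M21 transcript of its host, with exons as blue boxes and distance from the transcript start in kb on the x axis; the shortest exons are widened to be visible. All 3 triangles fall between exons: far into a long first intron in Gpc1, just before an exon in Eda and in a short intron of Mest.

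At 3 months on the diet all 3 miRNAs were more abundant in every HFCF library than in every chow library. This rise is what they were chosen for, so its values are a description and carry no test. HFCF libraries were all higher for 17.2% of the loci tested, and nothing is read from the 3 against that share. Levels are CPM, miRNA counts scaled to a common library total with TMM, which corrects for differences in library composition.

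Mir149 had raw counts of 82, 120 and 101 in the chow libraries at 3 months and of 596, 898 and 943 in the HFCF libraries. As levels these were 55.0, 52.8 and 44.6 CPM on chow and 248, 291 and 296 CPM on HFCF. The group means were 50.8 ± 5.50 CPM and 278.5 ± 26.7 CPM (SD, n = 3), a log2 fold change of 2.46 ± 0.29 (SE), or 5.49-fold. The lowest HFCF library, replicate 1, thus lay far above the highest chow library. Of the 227 loci, Mir149 ranked 3 from the top by log2 fold change at this time, after Mir582 and Mir205, with Mir676 at rank 7 and Mir335 at rank 12.

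Mir676 had raw counts of 131, 210 and 220 on chow and of 432, 738 and 726 on HFCF at 3 months. Its levels were 87.9, 92.4 and 97.1 CPM on chow, close together, and 180, 239 and 228 CPM on HFCF. The log2 fold change was 1.22 ± 0.15 (SE, n = 3), or 2.33-fold. Replicate 1 was the lowest HFCF library for Mir676 as for Mir149.

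Mir335 had raw counts of 182, 303 and 270 on chow and of 569, 686 and 866 on HFCF at 3 months. In CPM these were 122, 133 and 119 on chow and 237, 223 and 272 on HFCF. The log2 fold change was 0.96 ± 0.16 (SE, n = 3), or 1.95-fold. Here replicate 2 was the lowest HFCF library and replicate 3 the highest, an order that the other members did not show.

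**Figure D2:**
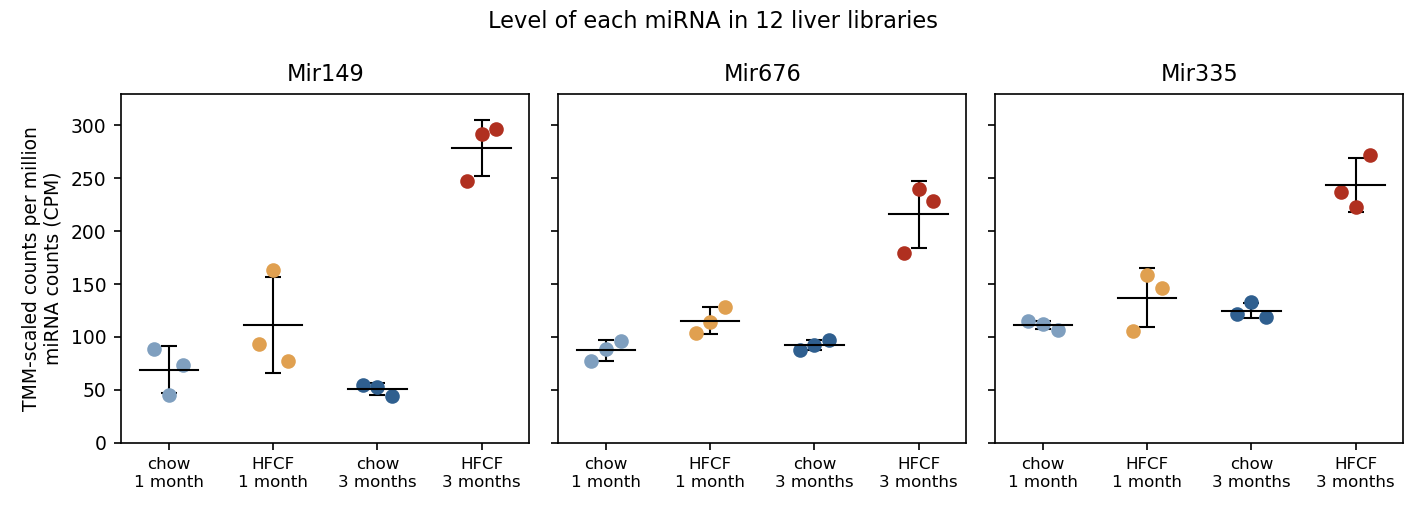
Level of Mir149, Mir676 and Mir335 in each of the 12 libraries (points, replicates 1 to 3 from left to right), in TMM-scaled CPM on the y axis, by group on the x axis; long bars are means and whiskers are SD over 3 libraries. The HFCF libraries at 3 months lie at 180 to 296 CPM for all 3 miRNAs, above every other library, while those at 1 month overlap with chow for Mir149 and Mir335.

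Scaling lowered the late HFCF levels against the rest, since TMM factors were 1.11 to 1.18 in the HFCF libraries at 3 months and 0.894 to 1.06 in all others. Before scaling, Mir149 stood at 57.2, 51.5 and 40.0 CPM on chow and at 275, 339 and 351 CPM on HFCF at 3 months. The smallest Mir149 count in any of the 12 libraries, 81 in chow replicate 2 at 1 month, had a 95% exact binomial interval of 37.5 to 58.7 unscaled CPM. The largest, 943 in HFCF replicate 3 at 3 months, had an interval of 329 to 374. The intervals cover counting error only.

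The comparison at 1 month used other libraries than the late rise and was tested. The test asked whether the 3 miRNAs differed early on the diet. It is not independent of the choice, since the miRNAs were picked as raised late, with earlier results of these data known. All 3 estimates were positive, smaller than those at 3 months, and none passed in edgeR after Benjamini-Hochberg adjustment, at a time when 3.08% of the 227 loci were called, all of them lower.

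Mir149 had raw counts of 249, 81 and 171 on chow and of 218, 456 and 213 on HFCF at 1 month. The levels were 88.5, 44.7 and 73.3 CPM on chow and 92.9, 163 and 77.5 CPM on HFCF, so the groups overlapped and the HFCF mean rested largely on replicate 2. The log2 fold change was 0.68 ± 0.28 (SE, n = 3 per group, edgeR adjusted p = 0.193), with a 95% interval before adjustment of 0.08 to 1.29. It was 0.36 without HFCF replicate 2, with an edgeR adjusted p of 0.485. That library held 1490 CPM of the leukocyte miRNAs listed further on and the other HFCF libraries at 1 month held 1334 and 1221 CPM. The chow libraries held 1610, 1093 and 1050 CPM, and the highest at 1 month, chow replicate 1, had 88.5 CPM of Mir149. The leukocytes' part in the result was not tested.

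At 1 month Mir676 was the one member whose groups did not overlap. Its raw counts were 217, 160 and 225 on chow and 243, 318 and 354 on HFCF, or 77.1, 88.3 and 96.4 CPM against 104, 114 and 129 CPM. Every HFCF library lay above every chow library, as the diets did without overlap in either direction for 18.9% of the loci tested. The log2 fold change was 0.40 ± 0.15 (SE, n = 3 per group) and did not pass (edgeR adjusted p = 0.164, 95% interval before adjustment 0.07 to 0.73).

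Mir335 had raw counts of 323, 203 and 249 on chow and of 248, 444 and 403 on HFCF at 1 month. Its levels were 115, 112 and 107 CPM on chow, the tightest group of any here, and 106, 159 and 146 CPM on HFCF. HFCF replicate 1 lay just below all 3 chow libraries. The log2 fold change was 0.30 ± 0.16 (SE, n = 3 per group), did not pass (edgeR adjusted p = 0.306) and had a 95% interval before adjustment of -0.04 to 0.64. Without HFCF replicate 1 it was 0.50 (edgeR adjusted p = 0.0555).

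Over the 3 miRNAs, 0 passed at 1 month in edgeR, DESeq2 or limma-voom, and 2 (Mir149 and Mir676) had an unadjusted edgeR p under 0.05, as had 41 of the 227 loci. These results do not show that the miRNAs were alike on both diets at 1 month.

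In order of mean level, Mir149 ran from chow at 3 months (50.8 ± 5.50 CPM, SD, n = 3) through chow at 1 month (68.8 ± 22.2) and HFCF at 1 month (111 ± 45.7) to HFCF at 3 months (278.5 ± 26.7). Neighbours among the first 3 groups overlapped, and the last group stood clear of them. Mir676 ran from chow at 1 month (87.3 ± 9.70) and chow at 3 months (92.5 ± 4.62), which overlapped, through HFCF at 1 month (115 ± 12.7) to HFCF at 3 months (216 ± 31.8), with no overlap at either of the upper steps. Mir335 ran from chow at 1 month (111 ± 4.11) and chow at 3 months (125 ± 7.48), which did not overlap, through HFCF at 1 month (137 ± 27.9), which overlapped with both, to HFCF at 3 months (244 ± 25.4). The same group was thus the highest for all 3, but the order below it differed for Mir149.

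Between the times, within HFCF-fed mice, the log2 difference of 3 months minus 1 month was 1.32 ± 0.27 (SE) for Mir149, 0.90 ± 0.15 for Mir676 and 0.83 ± 0.16 for Mir335. Within chow-fed mice it was -0.45 ± 0.29, 0.09 ± 0.15 and 0.17 ± 0.16. The diet effect at 3 months exceeded that at 1 month by 1.77 ± 0.40 for Mir149, 0.82 ± 0.21 for Mir676 and 0.66 ± 0.22 for Mir335 on the log2 scale. All of these use libraries that chose the miRNAs, so they describe the rise and test nothing.

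Ratios of raw counts within a library need no scaling, and they separated Mir149 from the other two. The count of Mir149 over that of Mir676 was 0.626, 0.571 and 0.459 on chow at 3 months and 1.38, 1.22 and 1.30 on HFCF. At 1 month this ratio was 1.15, 0.506 and 0.760 on chow and 0.897, 1.43 and 0.602 on HFCF, so the groups overlapped. Mir149 over Mir335 likewise went from 0.451, 0.396 and 0.374 to 1.05, 1.31 and 1.09 at 3 months.

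Mir335 over Mir676 moved much less. The ratio was 1.39, 1.44 and 1.23 on chow and 1.32, 0.930 and 1.19 on HFCF at 3 months, and between 1.02 and 1.49 in the 6 libraries of 1 month. Groups overlapped at both times. The ratio shows only how a pair of miRNAs changed against each other, not whether either stayed level.

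**Figure D3:**
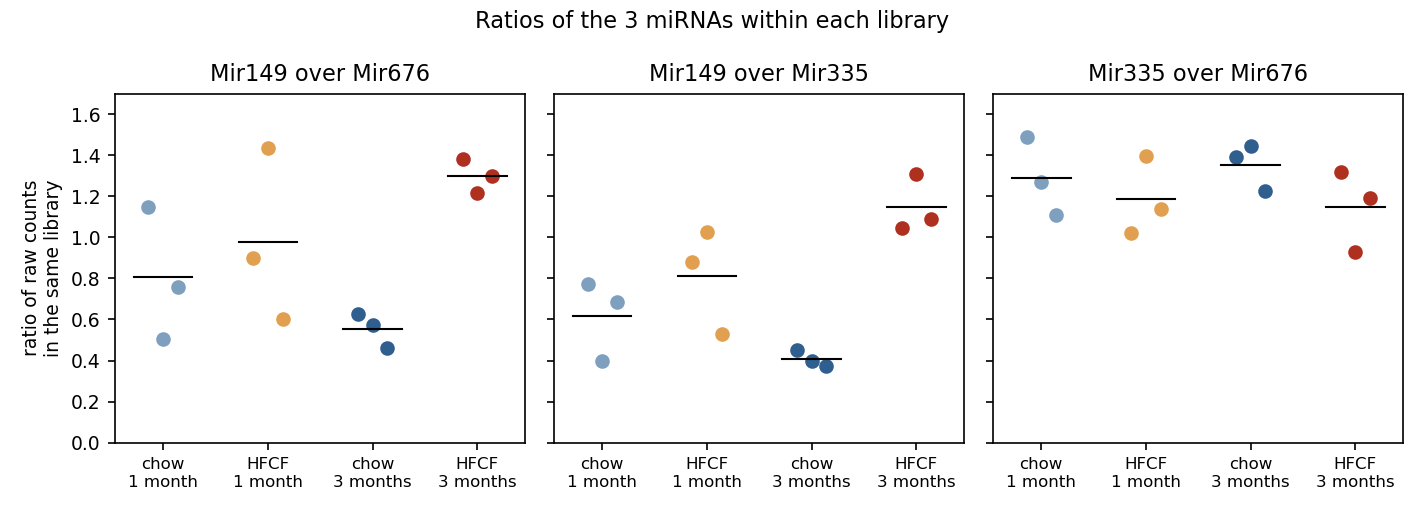
Ratio of raw counts of a pair of miRNAs in the same library (y axis) for each of the 12 libraries by group (x axis); points are replicates 1 to 3 from left to right and bars are means. Both ratios with Mir149 on top are higher in the 3 HFCF libraries at 3 months than in the chow libraries of that time, while Mir335 over Mir676 overlaps between all groups.

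Across the 12 libraries the log2 levels of the 3 miRNAs went together, with a Pearson correlation of 0.93 for Mir676 and Mir335 and 0.88 for Mir149 with each of them. The 3 late HFCF libraries carry most of this. After the mean of each group was taken off, the correlations were 0.23 for Mir676 and Mir335, 0.34 for Mir149 and Mir335, and -0.15 for Mir149 and Mir676. These are descriptions over libraries that share depth and scaling.

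The loci whose log2 levels were most like theirs across the 12 libraries overlapped from one miRNA to the next. Mir222, which with Mir221 comes from 1 cluster on the X chromosome, correlated at 0.93 with Mir149, at 0.93 with Mir676 and at 0.97 with Mir335. Mir223, a miRNA of myeloid cells, correlated at 0.94 with Mir149 and at 0.92 with Mir676. Mir351 was among the 5 nearest to Mir149 (0.88) and to Mir335 (0.90). Mir205, an epithelial miRNA, and Mir582, in an intron of Pde4d, were near Mir676 (0.93 and 0.92), and Mir221 and Mir103-2, in an intron of Pank2, near Mir335 (0.92 and 0.90). The median correlation over all loci tested was 0.05 for Mir149, 0.00 for Mir676 and -0.01 for Mir335. The named loci were picked as the highest correlations with miRNAs that were themselves chosen for a rise in the late HFCF libraries. High values were thus built into the choice, and nothing is read from them against the median.

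Inside groups the likeness was uneven. With the mean of each group taken off, Mir222 correlated at 0.82 with Mir335, at 0.59 with Mir149 and at 0.34 with Mir676. Mir223 stood at 0.58 with Mir149 and at 0.44 with Mir676. Mir351 stood at 0.75 with Mir335 and at 0.18 with Mir149. With Mir676, Mir205 stood at 0.67 and Mir582 at 0.35. With Mir335, Mir221 stood at 0.51 and Mir103-2 at 0.53. The correlation by which these loci were picked includes this part inside groups. Such values over all loci tested are not given here, so no likeness beyond that of other loci is read from them. At 3 months Mir222 had a mean of 210 CPM on chow and 383 CPM on HFCF, and Mir223 of 49.0 and 109 CPM.

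**Figure D4:**
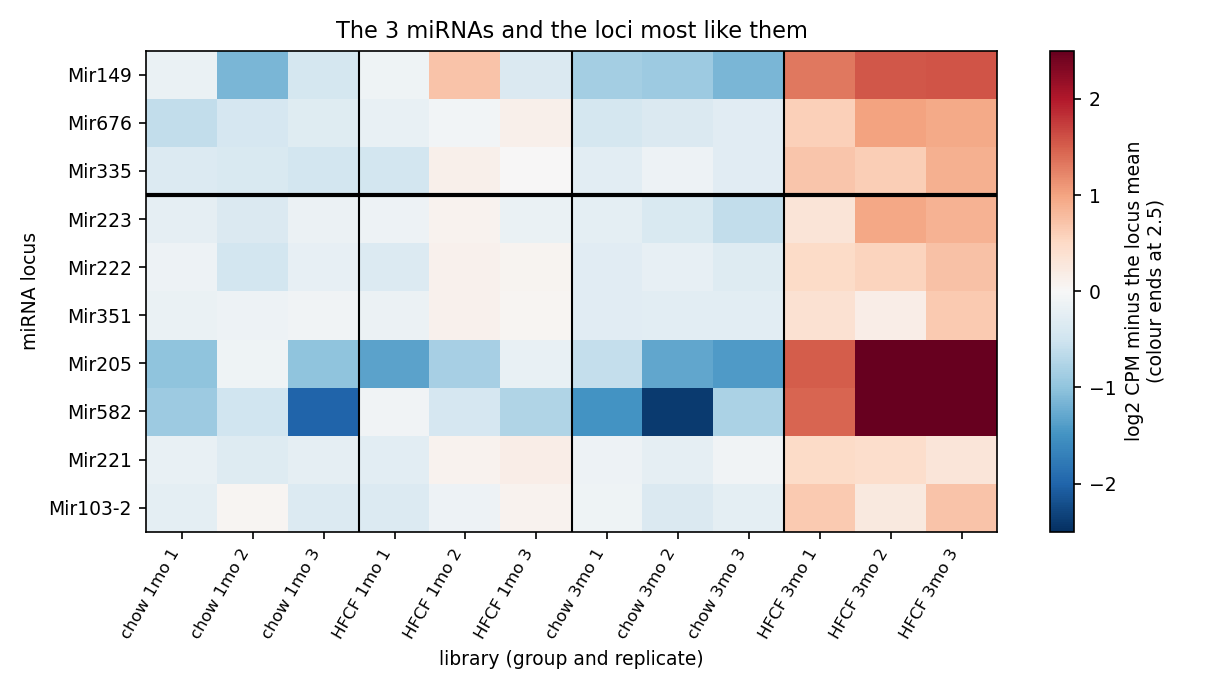
Log2 level minus the mean of the locus over 12 libraries (colour) for the 3 miRNAs, above the thick line, and for the other loci that were among the 5 most correlated with any of them; columns are libraries by group. All rows are at their highest in the HFCF libraries at 3 months. The rows were picked for likeness to miRNAs chosen for a rise there, so nothing is read from this peak. Mir205 and Mir582, which were scarce on chow, pass the end of the colour scale in 2 of these libraries.

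Markers of other cell types were read beside these values. The 6 leukocyte miRNAs (Mir142, Mir150, Mir155, Mir223, Mir342 and Mir511) were all detected in every library. Their summed level at 3 months was 974 to 1239 CPM on chow and 1151 to 1935 CPM on HFCF, with 3 higher and 1 lower in edgeR, where 22.9% of all loci were called. HFCF replicate 1, the lowest of its group for Mir149 and Mir676, was also lowest in leukocyte sum (1151 CPM against 1935 and 1480), in mesenchymal sum (15910 CPM against 22251 and 24688), in biliary sum (2052 CPM against 3546 and 2482) and in endothelial level (33677 CPM against 38437 and 37157). Its hepatocyte sum was the highest of the group, at 316782 CPM against 259958 and 257935 CPM. Its erythroid sum was in the middle, at 1872 CPM against 2069 and 1853 CPM. Its islet level was the highest, at 4.99 CPM against 2.60 and 3.14 CPM. For Mir335 this library was not the lowest, at 237 CPM against 223 and 272 CPM. Sums of leukocyte, hepatocyte, mesenchymal, biliary, endothelial, erythroid and islet markers all overlapped between the diets at 3 months. The hepatocyte markers were abundant in every library, at 257935 to 361514 CPM in sum. The part of any of these cell types in the rise was not tested. The first principal component (49.1% of the variance) set the 3 late HFCF libraries apart. Chow replicate 2 at 1 month stood apart on the second, with 44.7 CPM of the islet miRNA Mir375 against at most 5.37 CPM elsewhere, and with the highest mesenchymal (42763 CPM) and biliary (4441 CPM) sums of all libraries. Without it the log2 fold changes at 1 month were 0.51 for Mir149, 0.47 for Mir676 and 0.36 for Mir335 (edgeR adjusted p = 0.568, 0.259 and 0.536).

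Other intronic miRNAs gave the setting for the 3. By annotation, 86 further miRNA loci lay whole in an intron of a protein-coding gene on the same strand, and 76 of them were tested. A locus that touched an exon of any transcript of its host was not counted. Loci outside this rule can therefore include miRNAs in introns of some transcripts or of non-coding hosts. At 1 month 0 of the 76 passed in edgeR or limma-voom and 4 in DESeq2, with 9 at an unadjusted edgeR p under 0.05; their median log2 fold change was 0.03, against 0.02 over all loci. At 3 months 4 were higher, 6 lower and 66 not called, so 13.2% were called where 22.9% of all loci were. Their median log2 fold change was 0.18, against 0.02 over all loci. Scaled by library totals alone, 22 of them were higher and 2 lower, with medians of 0.43 for them and 0.27 over all loci; all loci then gave 59 higher and 18 lower, against 20 and 32 with TMM.

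Those that rose at 3 months were Mir582, Mir342 in Evl, Mir103-2 and Mir185 in Tango2. Mir582 went from a mean of 2.14 to 74.8 CPM (log2 fold change 5.09 ± 0.69 SE, edgeR adjusted p = 0.000392). Mir342, a leukocyte miRNA, went from 133 to 258 CPM (0.95 ± 0.21, adjusted p = 0.00849), and Mir103-2 from 56.4 to 98.3 CPM (0.80 ± 0.19, 0.00962). Mir185 changed least, from 1070 to 1333 CPM (0.32 ± 0.10, 0.0322).

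On the other side, Mir33, which lies in the sterol regulator Srebf2 and limits cholesterol export, fell from 28.4 to 8.12 CPM (log2 fold change -1.80 ± 0.32 SE, edgeR adjusted p = 0.00204). Mir1948 in Ttc39c fell from 557 to 238 CPM (-1.23 ± 0.25, 0.00446). The next largest falls were of Mir511, in the macrophage mannose receptor gene Mrc1 (-0.60 ± 0.18, 0.0307), and Mir101b in Rcl1 (-0.54 ± 0.15, 0.0202). Set among these and counted with them, Mir149, Mir676 and Mir335 ranked 2, 3 and 4 from the top by log2 fold change among the intronic loci at 3 months, after Mir582. In the comparison at 1 month they ranked 3, 7 and 12 among them. The ranks at 3 months rest on the rise the 3 were chosen for, so nothing is read from those ranks.

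**Figure D5:**
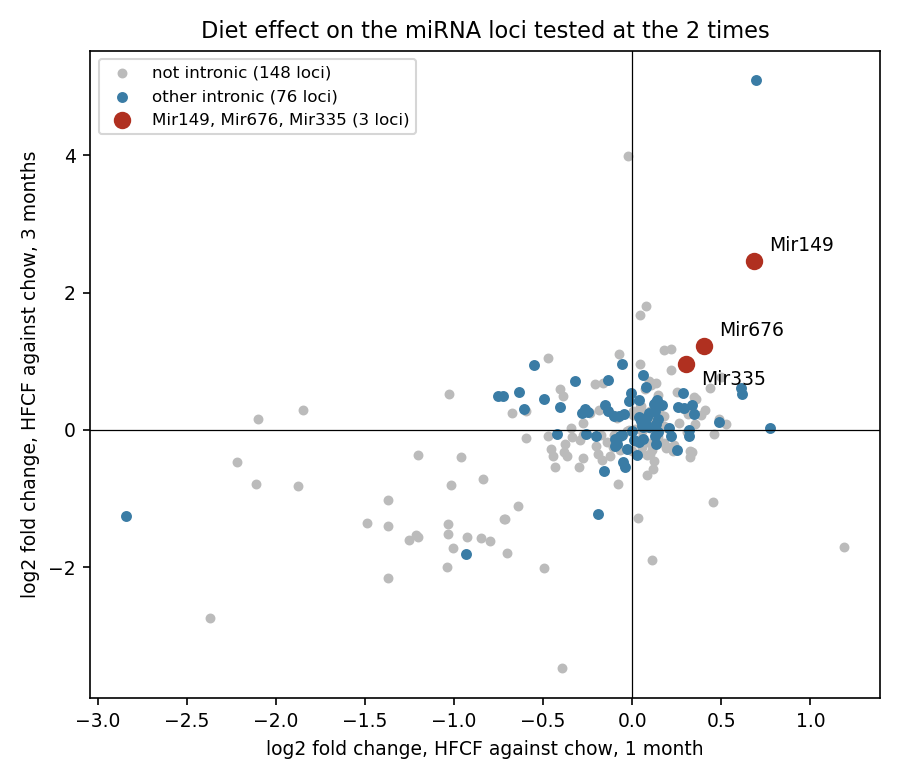
Log2 fold change of HFCF against chow at 1 month (x axis) and at 3 months (y axis) for 227 miRNA loci. Grey points are loci that did not meet the rule for intronic loci. Blue points are 76 other loci that met it, and red points are Mir149, Mir676 and Mir335. The red points lie right of 0 at 1 month, as do 40 of the 76 blue points, and higher at 3 months, with 2.46, 1.22 and 0.96. Their height at 3 months is what they were chosen for, so nothing is read from it against the blue points. The blue points spread to both sides of 0 at both times.

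Messenger RNA fragments in these libraries gave little on the host genes. Gpc1, Eda and Mest were not analysed here, as the rows used hold none of them. Of 21 genes for heparan sulfate proteoglycans and their synthesis, 10 had a row and 5 were tested (Hs6st1, Ndst1, Sdc1, Sdc2 and Sdc4). Of 9 genes of the ectodysplasin pathway 2 had a row, with Ikbkg tested, and of 20 imprinted genes 4 had a row, with the non-coding Rian and Mirg tested. In a fit of all 2511 genes that passed the filter, 0 of these 8 were called at either time, where edgeR called 0.438% of genes at 1 month and 2.51% at 3 months. The median log2 fold change of Rian and Mirg was -1.46 at 1 month and -1.10 at 3 months. It was -0.09 and 0.09 for the 5 heparan sulfate genes, and Ikbkg stood at -0.10 and -0.28. Over all genes the medians were -0.03 and 0.03. Each time 2 of the 8 had an unadjusted edgeR p under 0.05, and DESeq2 and limma-voom called 0. The share of all genes at that unadjusted threshold is not given here, so nothing is read from the 2. Counts ran from 0 to 73 per library, so smaller differences were not detectable at this depth.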

How the data were processed

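Small RNA libraries of liver from 12 male mice were used, 3 in each of 4 groups, taken from the sample labels. Values were read counts per gene as deposited by the authors, per the file headers, whole and not normalized. Per the submitters' processing notes, reads were placed on mm10. Neither aligner, counter nor strand setting was stated. The protocol text names a small RNA kit and the design text a total RNA kit with ribosomal RNA removal, which was not settled. Counts are per hairpin, so its arms are not separated. Of 3717 genes, 3617 matched GENCODE M21. miRNA loci were the 259 rows annotated as miRNA or, for 4 rows without a match, named so. Library size was their sum (1434214 to 3122907 counts). After filterByExpr 227 loci remained, with TMM scaling, and edgeR 4.0.16's quasi-likelihood test (robust, 1 mean per group, 12 libraries) was adjusted over them by Benjamini-Hochberg. Adjusted p under 0.05 was called changed. Standard errors are the absolute log2 fold change over the square root of F. The test was checked on simulated counts. DESeq2 1.42.0 and limma-voom 3.58.1 were alternatives. A second fit held every gene. Sequences came from RefSeq (GRCm38.p6), matched by symbol for 3 of 3 members, and folding from ViennaRNA 2.7.2. Counting intervals are exact binomial and cover counting error only.

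The miRNAs and the lists were chosen with earlier results of these data known, and the 3 miRNAs for their late rise on the diet, so the comparisons that use libraries of 3 months carry no test for them. The rule for other named loci was the 5 highest correlations with each of the 3, the up to 4 largest called changes in each direction among intronic miRNAs, called genes of the host lists, and loci sharing a seed. No pair of libraries within a group agreed within sampling noise. The rows used hold none of the host genes Gpc1, Eda or Mest, so the planned test of host rows was not made.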

Additional observations from a re-analysis of the deposited data

How the results depend on the processing

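Of 22 alternatives, none gave an adjusted p under 0.05 for Mir149, Mir676 or Mir335 at 1 month; their estimates ran from 0.36 to 1.05, 0.32 to 0.72 and 0.21 to 0.64, while adjusted p spanned 0.104 to 0.568, 0.0818 to 0.390, and 0.0555 to 0.624 in the same order. Their values at 3 months were 2.71, 1.48 and 1.22 with library totals and 2.71, 1.50 and 1.20 with all genes in 1 fit. The median over miRNA loci at 3 months was then 0.27 in both, against 0.02 with TMM, and at 1 month 0.34 with all genes in 1 fit. With 1 library left out they were 2.35 to 2.56, 1.14 to 1.36 and 0.88 to 1.04. Calls at 1 month numbered 7, against 13 with DESeq2, 3 with all genes in 1 fit, 4 with only the libraries compared, and 3 to 24 with 1 library left out, the 24 without chow replicate 3 of 1 month. At 3 months they numbered 52, against 28 with all genes in 1 fit and 20 to 70 with 1 library left out. Of the 52, 20 were called again without chow replicate 3, 32 without HFCF replicate 2 and 25 without HFCF replicate 3, where 26 were called in all.

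Intronic miRNAs called higher at 1 month numbered 0, against 2 with DESeq2, 1 with no filter, 1 at 10 CPM in 3 libraries and 0 to 2 with 1 library left out. Those lower were 0, against 2 with DESeq2 and 0 to 1 with 1 library left out. Their median was 0.36 with all genes in 1 fit, and 0.03 to 0.11 with 1 library left out. At 3 months 4 were higher, against 22 with library totals and 1 to 8 with 1 library left out. The 6 lower were 2 with library totals, 2 with all genes in 1 fit and 2 to 8 with 1 library left out. Their median was 0.43 with library totals, 0.42 with all genes in 1 fit and 0.10 to 0.20 with 1 library left out. The cause was not tested.

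The labels number the replicates alike across diets, but nothing in them says that a number marks a shared source. Deviations of same-numbered libraries correlated at -0.06 to 0.38, over 0.1 for some numbers and under it for others at both times, and 7 of 12 libraries correlated best with their own number. Whether the numbers pair the mice is not settled by this hint from the data. With the number as a replicate block within each time, 11 loci were called at 1 month (1 of them intronic and lower) and 52 at 3 months, and the 3 miRNAs stood at 0.64, 0.40 and 0.28 at 1 month. The alternative for host rows was not run, for lack of such rows.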
